A study of Mus musculus with 6 samples.

Results

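Chaperones are proteins that help other proteins fold, keep them from clumping and pass damaged ones on to degradation. The genes described here are those whose platform symbol begins with Hspa, Hspb, Hspd, Hspe, Hsph, Hsp and a digit, Dnaj, Cct2 to Cct8, Pdia or Fkbp. The rule reads symbols and no measured value, and it found 53 genes on 68 probes, out of 7312 named genes and 11542 probes in the authors' value table. All 53 were among the 6823 genes tested, and 47 were detected on all 6 arrays. Cct2, Cct7, Dnajb13, Dnajb2, Dnajb4 and Hspb3 were detected on fewer. A gene with several probes was read by its brightest one.

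RNA was measured on Illumina mouse BeadChips in primordial germ cell-like cells (PGCLCs) induced by Nanog, in PGCLCs induced by cytokines, and in mouse embryonic stem cells (mESCs), on 2 arrays each. All 3 groups are male cells of strain 129 x MF1 that carry a Nanog transgene. PGCLCs stand in for the earliest germ cells of the embryo and were collected on day 4 after epiblast-like cells were moved into GK15 medium. Nanog PGCLCs received doxycycline at 0.7 µg/ml, which switches the transgene on, and no cytokine is listed for them. For cytokine PGCLCs the medium held 500 ng/ml of both BMP4 and BMP8A, with LIF at 1000 U/ml and the growth factors SCF (100 ng/ml) and EGF (50 ng/ml). The mESCs grew in N2B27 medium with CHIR99021 at 3 µM, PD0325901 at 1 µM and LIF at 1000 U/ml, so group and medium cannot be told apart in either comparison with mESCs. Both of these comparisons also share the same 2 mESC arrays. The sources used here do not give whether PGCLCs were sorted or whether replicates are separate cultures, and p-values then measure only how these arrays spread, which may be technical.

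The families divide the work of folding. HSP70 proteins bind short stretches of unfolded chains and depend on J-domain proteins, which bring clients and start ATP hydrolysis, and on HSP110 proteins, which exchange the nucleotide. HSP90 finishes kinases and hormone receptors together with co-chaperones such as some FKBP proteins, small heat shock proteins hold unfolding proteins without using ATP, and the HSP60 and CCT chaperonins enclose their clients in a ring. Protein disulfide isomerases (the Pdia genes) make and rearrange disulfide bonds in the endoplasmic reticulum (ER). Pluripotent stem cells are known for active protein quality control, and heat shock factor and the unfolded protein response are known switches of some chaperone genes.

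Median raw intensity per array was 226.2 to 294.3, and precision is limited by the number of arrays. Of 45281 probes, 9220 and 8788 were detected on the mESC arrays, against 9871 to 10028 on the PGCLC arrays. The lowest detected signal was 7.06 and 7.17 log2 units on the mESC arrays, against 6.88 to 6.91 on the PGCLC arrays. The part of this in the comparisons with mESCs was not tested. The germ cell markers had 6 tested genes of 9 listed names, of which 5 were called higher in Nanog PGCLCs and 6 in cytokine PGCLCs than in mESCs, while Prdm1 was not tested. Their summed level, the sum of linear normalized intensities, was 11357 to 11673 in Nanog PGCLCs and 14097 to 14488 in cytokine PGCLCs, against 4201 to 4444 in mESCs. Of the 6 red cell markers 4 were tested, and their summed level was 239 to 279 in Nanog PGCLCs and 2077 to 2157 in cytokine PGCLCs, against 273 and 2937 in mESCs. The high mESC value is replicate 1, where Hba-a1 stood at 11.42 log2 units against 6.36 on replicate 2. Of the 5 trophoblast markers 2 were tested, with a summed level of 195 to 207 in Nanog PGCLCs and 682 to 696 in cytokine PGCLCs, against 227 to 264 in mESCs. The fibroblast marker Vim was lower in both PGCLC groups, at a summed level of 70.1 to 86.1 and 183 to 201 against 479 to 548 in mESCs, and 0 of 6 endoderm markers were tested. The neural marker Nes, 1 tested of 3, was not detected in Nanog PGCLCs and was called lower there than in mESCs, with 76.8 to 90.9 in Nanog PGCLCs and 131 to 153 in cytokine PGCLCs, against 145 to 193 in mESCs. Of 8 pluripotency markers 3 were called lower in each PGCLC group and 1 higher in Nanog PGCLCs, with a summed level of 23885 to 24203 in Nanog PGCLCs and 24644 to 26578 in cytokine PGCLCs, against 26992 to 27104 in mESCs. The part of these other cell types in the differences below was not tested, and fewer cells of a type cannot be told apart from less RNA per cell.

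Chaperone genes were more often lower than higher in PGCLCs, but the split depended on the scaling of the arrays. Calls were made at an adjusted p below 0.05 (limma, Benjamini-Hochberg over all 6823 genes). Of the 53 genes, 27 were called in Nanog PGCLCs against mESCs (50.9%, with 54.0% of all genes called), 7 higher (28.2% of all genes) and 20 lower (25.9% of all genes). In cytokine PGCLCs against mESCs 22 were called (41.5%, with 54.7% of all genes), 6 higher (29.9% of all genes) and 16 lower (24.8% of all genes). The median log2 fold change was -0.19 in each, against -0.00 and 0.01 over all genes. For cytokine PGCLCs it was -0.08 without mESC replicate 2 and -0.10 without background correction. When the arrays were brought to a common median instead of being quantile normalized, the median of all genes moved to 0.21 and 0.16. The chaperone genes were then at -0.01 and -0.10, with 9 higher and 7 lower in Nanog PGCLCs and 10 higher and 10 lower in cytokine PGCLCs. Without Nanog PGCLC replicate 2 the count for Nanog PGCLCs against mESCs was 15.

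Few changes were large. At least 2-fold changes among called genes numbered 0 in Nanog PGCLCs (10.4% of all genes) and 4 in cytokine PGCLCs (10.7% of all genes), namely Hspb8, Hspb1, Dnaja2 and Fkbp5, all lower. Between the PGCLC groups 9 genes were called (with 22.3% of all genes), 8 higher in Nanog PGCLCs (11.3% of all genes) and 1 lower (11.1% of all genes), and 0 reached 2-fold (2.42% of all genes). The count was 5 without Nanog PGCLC replicate 1, 4 without cytokine PGCLC replicate 1 and 6 without cytokine PGCLC replicate 2. The split was 9 higher and 5 lower without background correction and from the authors' value table, 9 higher and 6 lower with a variance trend, and 7 higher and 4 lower among genes detected on all 6 arrays.

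**Figure D1:**
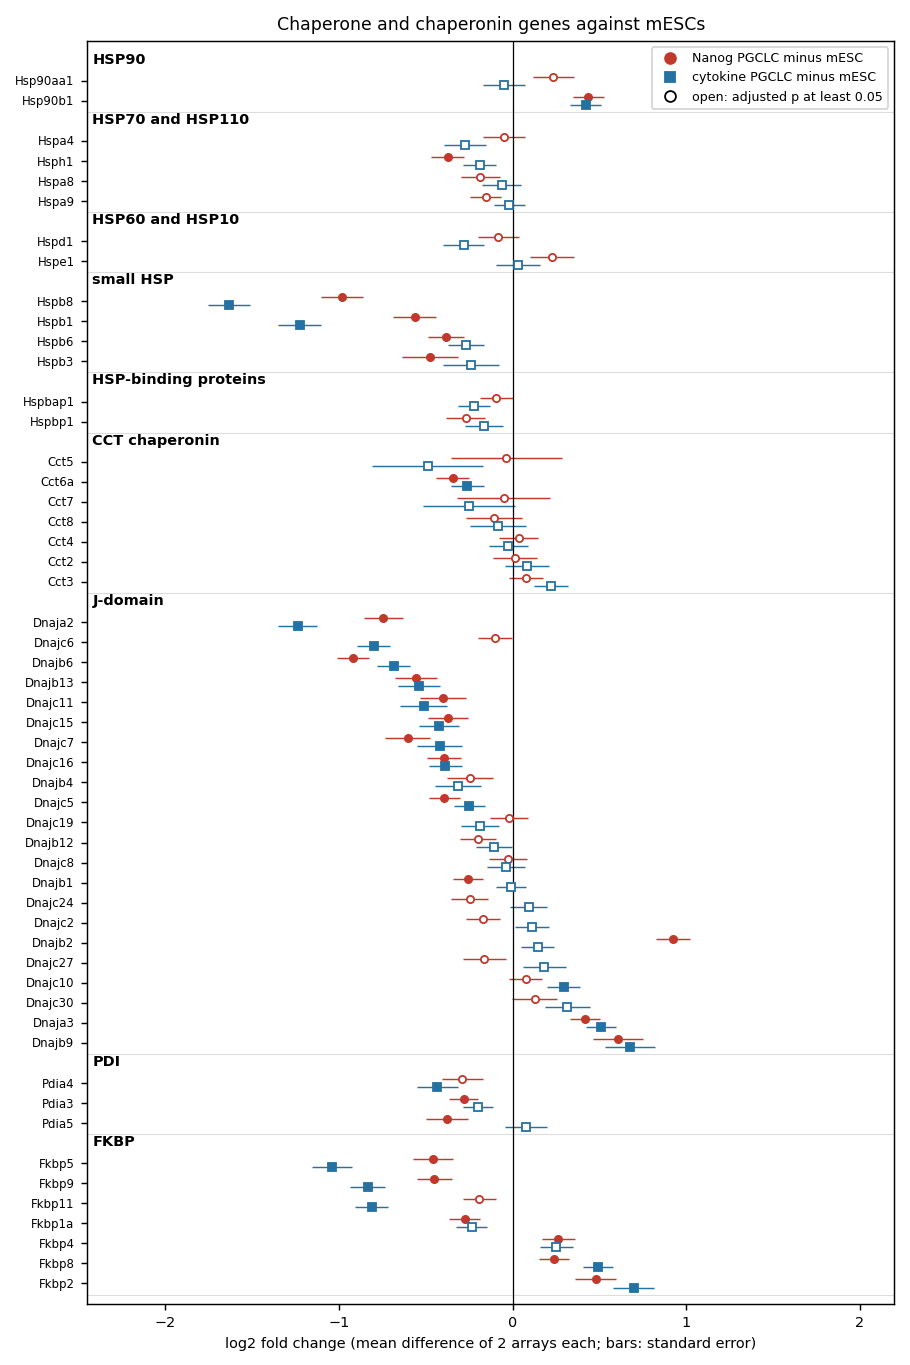
Log2 fold change of each of the 53 genes (horizontal axis, rows grouped by family) in Nanog PGCLCs (red circles) and cytokine PGCLCs (blue squares) against the same mESCs, from 2 arrays per group, with bars for the standard error. Open symbols have an adjusted p of at least 0.05. Hspb8, Dnaja2 and Hspb1 lie farthest left, in cytokine PGCLCs, at -1.63, -1.24 and -1.23.

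**Figure D2:**
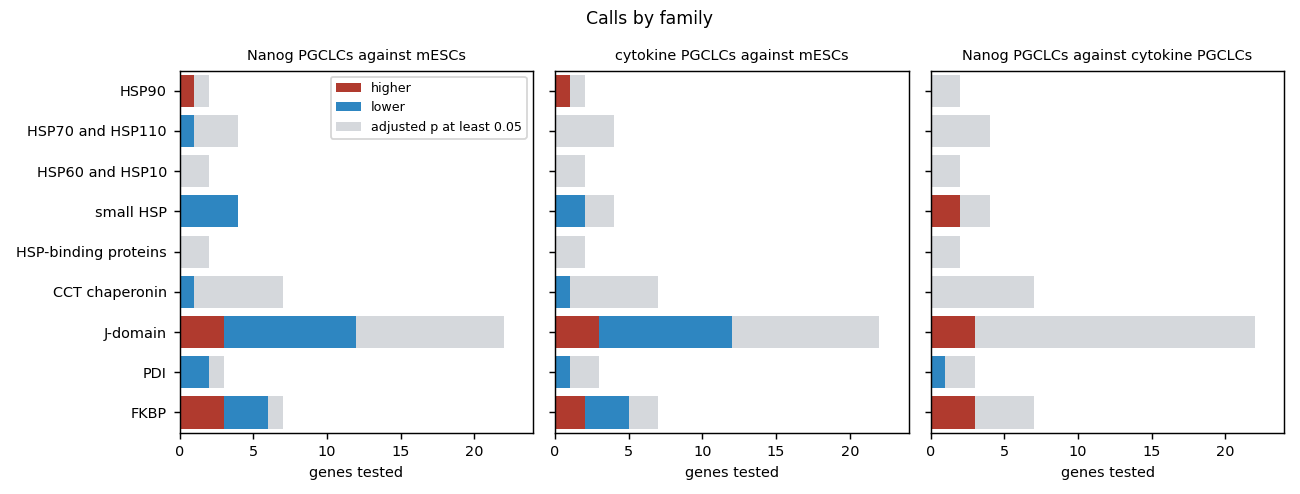
Number of genes tested in each family (horizontal axis) in the 3 comparisons, coloured by call: red higher, blue lower, grey an adjusted p of at least 0.05. All 4 small HSP genes are lower in Nanog PGCLCs, while 6 of 7 CCT genes are grey in both comparisons with mESCs.

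Small heat shock protein genes were among the larger decreases. All 4 tested genes were called lower in Nanog PGCLCs (25.9% of all genes, median log2 fold change -0.52) and 2 of 4 in cytokine PGCLCs (24.8% of all genes, median -0.75). Hspb8, which works with BAG3 to send misfolded proteins to autophagy, had normalized log2 intensities of 9.84 and 9.55 in Nanog PGCLCs and 8.94 and 9.15 in cytokine PGCLCs, against 10.67 and 10.69 in mESCs. The 3 groups did not overlap, with cytokine PGCLCs lowest and mESCs highest. Hspb8 was 1.97-fold lower in Nanog PGCLCs (-0.98 ± 0.12 on the log2 scale, with SE from 2 arrays in each group, limma adjusted p = 0.000287) and 3.10-fold lower in cytokine PGCLCs (-1.63 ± 0.12, adjusted p = 2.05e-05). Between the PGCLC groups it was 1.57-fold higher in Nanog PGCLCs (0.65 ± 0.12, adjusted p = 0.00767), a call lost without cytokine PGCLC replicate 1 (0.55, adjusted p = 0.0736). A second Hspb8 probe gave -1.08 and -1.41 against mESCs and 0.33 between the PGCLC groups (adjusted p over probes = 0.069 for the last), with -0.62 and -0.77 against mESCs without background correction.

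Hspb1, which binds unfolding proteins and actin filaments, had log2 intensities of 10.74 and 10.54 in Nanog PGCLCs and 10.12 and 9.83 in cytokine PGCLCs, against 11.25 and 11.14 in mESCs. Its groups stood in the same order as those of Hspb8, again without overlap. It was 1.48-fold lower in Nanog PGCLCs (log2 fold change -0.56 ± 0.12, limma adjusted p = 0.00565) and 2.34-fold lower in cytokine PGCLCs (-1.23 ± 0.12, adjusted p = 0.000103) than in mESCs. Between the PGCLC groups Hspb1 was 1.58-fold higher in Nanog PGCLCs (0.66 ± 0.12, adjusted p = 0.00775), which was not called without Nanog PGCLC replicate 1 (0.56, adjusted p = 0.0542) or without cytokine PGCLC replicate 2 (0.52, adjusted p = 0.0638).

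The other small HSP genes, both studied mainly in muscle, changed less. Hspb6 was at -0.38 in Nanog PGCLCs (adjusted p = 0.0144) and -0.27 in cytokine PGCLCs (adjusted p = 0.058), and the call was lost with median scaling (-0.08), without Nanog PGCLC replicate 2 (-0.31) and without mESC replicate 2 (-0.30). Hspb3 was not detected in Nanog PGCLCs and was detected on only 1 mESC array (7.44 and 6.92 on the pair), so no fold is given. It was called lower in Nanog PGCLCs than in mESCs (limma adjusted p = 0.0369), a call lost in 7 of the 16 alternatives that gave it a value.

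The upstream sequences of Hspb8 and Hspb1 are printed because these are the small HSP genes with the largest changes, and those of the Hspd1 and Hspe1 pair and of Hsp90b1 because they hold the motifs. Heat shock factor binds repeats of GAA, searched on both strands as GAA, any 2 bases and TTC (2 units), and as the same followed by any 2 bases and GAA (3 units, so that each 3-unit match also holds a 2-unit match). The ER stress response element was searched on both strands as CCAAT, any 9 bases and CCACG. Sequences are from RefSeq on GRCm38.p6, 5′ to 3′ on the strand given, and motif matches are in capitals. Except for the Hspd1 and Hspe1 pair they are the 250 bases before the gene's start.
Hspb8, chr5:116422865-116423114, minus strand: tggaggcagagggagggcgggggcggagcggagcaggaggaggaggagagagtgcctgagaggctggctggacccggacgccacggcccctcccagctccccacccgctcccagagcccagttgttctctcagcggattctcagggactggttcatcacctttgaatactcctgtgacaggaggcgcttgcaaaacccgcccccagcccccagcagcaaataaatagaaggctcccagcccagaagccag
Hspb1, chr5:135887669-135887918, plus strand: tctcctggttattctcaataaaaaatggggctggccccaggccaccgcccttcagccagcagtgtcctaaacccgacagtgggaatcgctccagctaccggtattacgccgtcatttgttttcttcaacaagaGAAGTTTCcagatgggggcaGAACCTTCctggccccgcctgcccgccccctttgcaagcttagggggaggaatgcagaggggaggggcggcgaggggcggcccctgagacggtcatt
Hspd1 to Hspe1, chr1:55087933-55088147, plus strand: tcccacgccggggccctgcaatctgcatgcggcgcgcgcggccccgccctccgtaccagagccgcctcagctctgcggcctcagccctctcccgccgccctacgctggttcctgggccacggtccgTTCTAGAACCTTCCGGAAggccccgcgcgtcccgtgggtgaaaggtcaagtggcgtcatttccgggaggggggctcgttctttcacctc
Hsp90b1, chr10:86705445-86705694, minus strand: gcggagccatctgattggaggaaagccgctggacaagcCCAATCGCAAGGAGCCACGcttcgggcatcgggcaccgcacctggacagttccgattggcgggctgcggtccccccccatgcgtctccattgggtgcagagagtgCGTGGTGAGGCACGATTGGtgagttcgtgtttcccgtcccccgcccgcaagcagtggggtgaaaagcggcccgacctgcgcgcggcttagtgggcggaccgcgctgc

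Of the 53 genes, 45 matched a promoter entry. These genes have 59 promoter entries. The 2-unit motif was in 10 of them (16.9%, in 9 genes), against 6.69% of 32851 promoters of the same length. The 3-unit motif was in 4 (6.78%, of Dnajb6, Hspd1 and Hspe1), against 0.466%. Hspd1 and Hspe1 share the same site, and so do both Dnajb6 entries, so these entries are not independent in either count. Hspb1 held the 2-unit motif at bases -117 to -110 and -97 to -90 from its start, and Hspb8, which changed more, held neither heat shock motif in this window. The ER stress response element was in 1 gene, Hsp90b1, at bases -212 to -194 and -107 to -89, against 0.113% of all promoters. A match describes the letters only.

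Among the HSP70 partners, the J-domain genes changed in both directions. Of 22 tested, 3 were higher and 9 lower in each comparison with mESCs, and 3 were higher and 0 lower in Nanog than in cytokine PGCLCs. Of all genes, 28.2% were higher and 25.9% lower in Nanog PGCLCs than in mESCs, and 29.9% and 24.8% in cytokine PGCLCs. Between the PGCLC groups 11.3% were higher and 11.1% lower. Dnaja2, a cytosolic partner of HSP70, had log2 intensities of 8.27 and 8.13 in Nanog PGCLCs and 7.74 and 7.68 in cytokine PGCLCs, against 8.82 and 9.07 in mESCs. The 3 groups were separate. Dnaja2 was 1.68-fold lower in Nanog PGCLCs (log2 fold change -0.74 ± 0.11, limma adjusted p = 0.000796) and 2.36-fold lower in cytokine PGCLCs (-1.24 ± 0.11, adjusted p = 5.81e-05). Without background correction these were -0.47 and -0.73. It was 1.41-fold higher in Nanog than in cytokine PGCLCs (0.49 ± 0.11, adjusted p = 0.0173), and this call was lost without Nanog PGCLC replicate 1 (0.43), cytokine PGCLC replicate 1 (0.52) or cytokine PGCLC replicate 2 (0.46).

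Dnajc6 encodes auxilin, which works with HSC70 to strip clathrin from vesicles. Its log2 intensity was 10.19 and 10.12 in Nanog PGCLCs and 9.38 and 9.53 in cytokine PGCLCs, against 10.30 and 10.22 in mESCs. Cytokine PGCLCs stood apart below the other groups. Dnajc6 was 1.74-fold lower in cytokine PGCLCs than in mESCs (log2 fold change -0.80 ± 0.10, limma adjusted p = 0.000241) and 1.62-fold higher in Nanog than in cytokine PGCLCs (0.70 ± 0.10, adjusted p = 0.00188), while Nanog PGCLCs were at -0.10 ± 0.10 against mESCs (adjusted p = 0.396). Its second probe gave -0.13, -0.88 and 0.75 for Nanog PGCLCs against mESCs, cytokine PGCLCs against mESCs and Nanog against cytokine PGCLCs.

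Dnajb2, a J-domain protein that also binds ubiquitin, was detected on both Nanog PGCLC arrays (7.16 and 7.05) and not well above background in cytokine PGCLCs (6.28 and 6.36) or mESCs (6.11 and 6.24). It was at least 1.15-fold higher in Nanog than in cytokine PGCLCs (limma adjusted p = 0.00112). Against mESCs it was called higher too (limma adjusted p = 0.00012), and no fold is given there, since the bound was under 1. Dnajb2 passed the detection filter only through the Nanog PGCLC arrays, where it was high, so neither call is independent of that filter.

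Dnajb6, which keeps polyglutamine proteins from aggregating, depended on the probe. Its used probe read 9.55 and 9.42 in Nanog PGCLCs and 9.75 and 9.69 in cytokine PGCLCs, against 10.38 and 10.43 in mESCs. This was 1.89-fold lower in Nanog PGCLCs (log2 fold change -0.92 ± 0.09, limma adjusted p = 9.87e-05) and 1.61-fold lower in cytokine PGCLCs (-0.69 ± 0.09, adjusted p = 0.000452). A probe annotated to a second transcript gave -0.88 and -0.80. A probe annotated to a further transcript gave 0.08 and 0.03, neither called, with 9.48 and 9.64 in Nanog PGCLCs and 9.55 and 9.48 in cytokine PGCLCs, against 9.44 and 9.53 in mESCs. With the mean of all probes Dnajb6 was at -0.58 in Nanog PGCLCs.

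**Figure D3:**
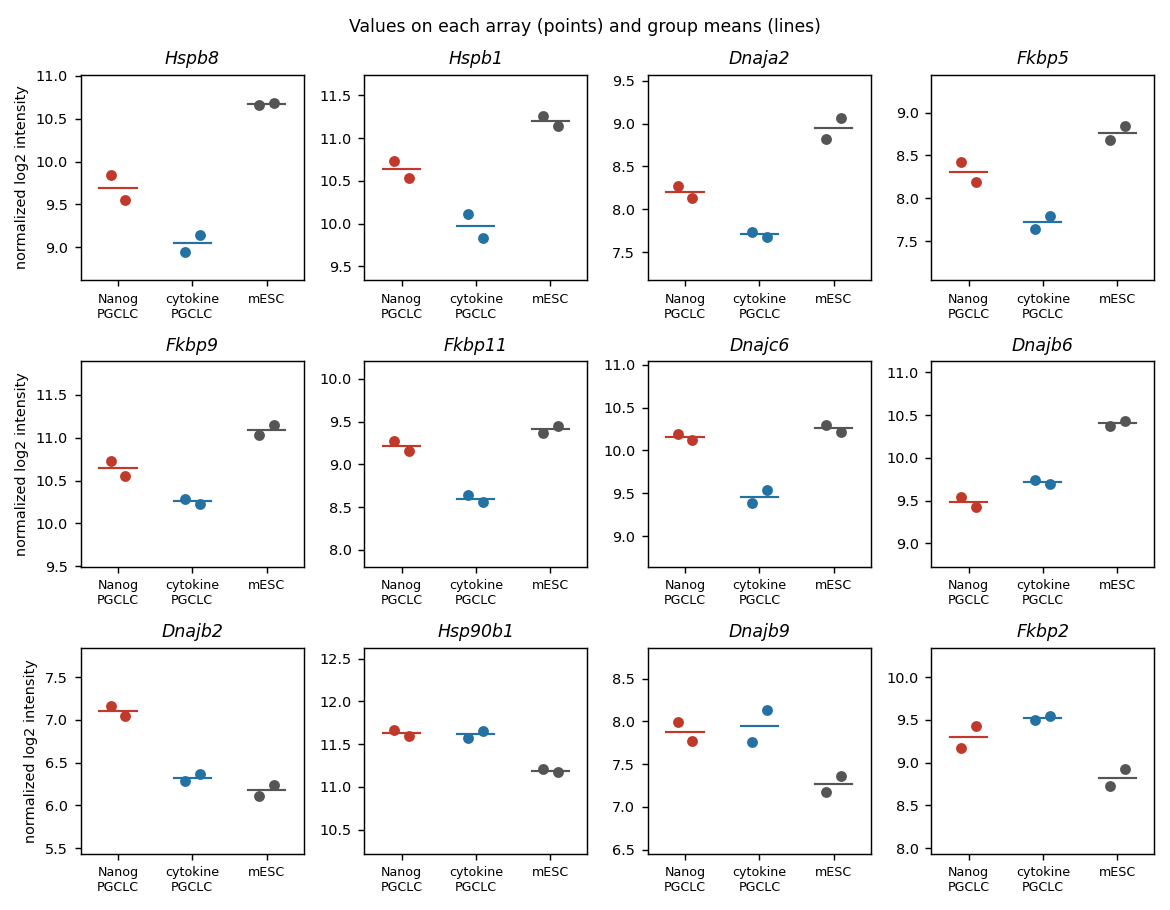
Normalized log2 intensity (vertical axis, a separate range for each gene) of 12 genes on each array, with points for arrays and lines for the means of Nanog PGCLCs, cytokine PGCLCs and mESCs. For Hspb8, Hspb1, Dnaja2, Fkbp5 and Fkbp9 the points order cytokine PGCLCs below Nanog PGCLCs below mESCs.

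**Figure D4:**
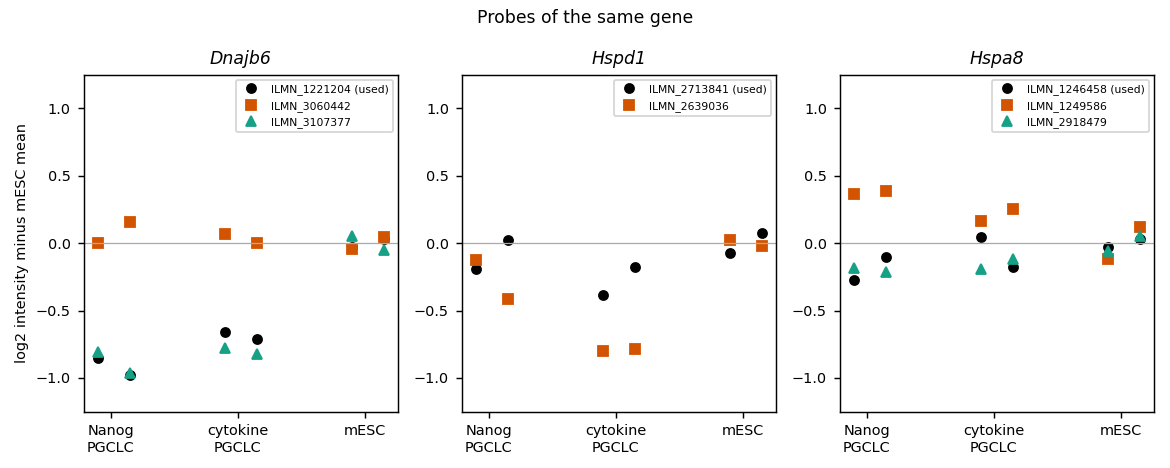
Log2 intensity minus the mESC mean of the same probe (vertical axis) on each array for the probes of Dnajb6, Hspd1 and Hspa8, by group. In Nanog PGCLCs the 3 Dnajb6 probes average -0.92, -0.88 and 0.08.

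The J-domain genes called higher than in mESCs were Dnajb9, Dnaja3 and Dnajb2 in Nanog PGCLCs, and Dnajb9, Dnaja3 and Dnajc10 in cytokine PGCLCs. Dnajc10, an ER reductase, was at 0.30 ± 0.10 in cytokine PGCLCs (adjusted p = 0.0306), lost without either cytokine PGCLC replicate or mESC replicate 1. Dnajb9, an ER partner of HSP70 that is induced in the unfolded protein response, read 7.99 and 7.77 in Nanog PGCLCs and 7.76 and 8.13 in cytokine PGCLCs, against 7.18 and 7.36 in mESCs (its arrays are given because of its role, after its values were seen). Every PGCLC array was above both mESC arrays, and the PGCLC groups overlapped. Dnajb9 was 1.53-fold higher in Nanog PGCLCs (0.61 ± 0.14, limma adjusted p = 0.00789; 0.29 without background correction, and not called without Nanog PGCLC replicate 1 at 0.50) and 1.60-fold higher in cytokine PGCLCs (0.68 ± 0.14, adjusted p = 0.00477; 0.32 without background correction). Dnaja3, its mitochondrial relative, was at 0.42 ± 0.09 and 0.51 ± 0.09 (adjusted p = 0.00436 and 0.00152). The main HSP70 partner Dnajb1 was at -0.26 (adjusted p = 0.036) in Nanog PGCLCs and -0.01 in cytokine PGCLCs, and the first call was lost with median scaling and whenever any 1 of the 6 arrays was left out.

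Dnajc7, which links HSP70 to HSP90, was at -0.60 in Nanog PGCLCs (adjusted p = 0.00494) and -0.42 in cytokine PGCLCs (adjusted p = 0.0249; -0.26 and not called without cytokine PGCLC replicate 2, and not called without either mESC replicate). Dnajb13, Dnajc5, Dnajc11, Dnajc15 and Dnajc16 were called lower too, at -0.56 to -0.37 in Nanog PGCLCs and -0.54 to -0.25 in cytokine PGCLCs. Of these, Dnajb13 was not detected in Nanog PGCLCs, where it was at least 1.32-fold lower than in mESCs (limma adjusted p = 0.00505). It was detected on both mESC arrays and 1 cytokine PGCLC array, so it passed the detection filter mainly through the group where it was high. Median scaling ended the calls of all 5 of these genes in each comparison with mESCs. Leaving out single arrays ended calls of Dnajc5, Dnajc11, Dnajc15 and Dnajc16 as well, and none of Dnajb13. The remaining J-domain genes (Dnajb4, Dnajb12, Dnajc2, Dnajc8, Dnajc19, Dnajc24, Dnajc27 and Dnajc30) were not called in any comparison on the probe used, with the settings reported here. A second Dnajc8 probe was higher in Nanog than in cytokine PGCLCs (0.63, limma adjusted p over probes = 0.0236), against 0.01 on the used probe. Dnajc30 was called higher in cytokine PGCLCs than in mESCs in 8 of the 17 alternatives. Dnajc24 was called lower in Nanog than in cytokine PGCLCs in 7 of the 17.

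The HSP70 and HSP110 genes that were tested gave few calls. Of these 4, 1 was called in Nanog PGCLCs (54.0% of all genes) and 0 in cytokine PGCLCs (54.7% of all genes). The HSP70 genes Hspa1a, Hspa1b and Hspa5 are not among the 53 genes, so nothing is said of them here. Hsph1, a nucleotide exchange factor, was at -0.37 ± 0.09 in Nanog PGCLCs (limma adjusted p = 0.0109; lost with median scaling at -0.20, without Nanog PGCLC replicate 1 at -0.35 and without mESC replicate 2 at -0.31). The constitutive cytosolic chaperone Hspa8 read 13.72 and 13.89 in Nanog PGCLCs and 14.04 and 13.82 in cytokine PGCLCs, against 13.97 and 14.02 in mESCs, and was not called. Its probes disagreed: 1 was called higher in Nanog PGCLCs (0.37, adjusted p over probes = 0.0208) and the other 2 were at -0.19 and -0.20. Without a call in either comparison with mESCs were also the HSP70 cofactor Hspbp1 (-0.27 in Nanog PGCLCs and -0.16 in cytokine PGCLCs) and Hspbap1 (-0.09 and -0.22). Both were grouped as HSP-binding proteins, not as HSP70 genes. The mitochondrial Hspa9 and the HSP110 relative Hspa4 were at -0.15 and -0.05 in Nanog PGCLCs, neither called.

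The ER member of the HSP90 family was higher in both PGCLC groups. Hsp90b1, known as GRP94, read 11.67 and 11.59 in Nanog PGCLCs and 11.57 and 11.66 in cytokine PGCLCs, against 11.21 and 11.17 in mESCs (its arrays are given after its values were seen). All PGCLC arrays lay above the mESC arrays, by 1.35-fold in Nanog PGCLCs (log2 fold change 0.44 ± 0.09, limma adjusted p = 0.00404) and 1.34-fold in cytokine PGCLCs (0.42 ± 0.09, adjusted p = 0.00485). This call held in all 17 alternatives. The cytosolic Hsp90aa1 was at 0.24 ± 0.12 in Nanog PGCLCs and -0.05 ± 0.12 in cytokine PGCLCs on the probe used, neither called. A second Hsp90aa1 probe was lower in cytokine PGCLCs than in mESCs (-0.31, adjusted p over probes = 0.0334) and higher in Nanog than in cytokine PGCLCs (0.38, adjusted p over probes = 0.0381). The first call was lost with median scaling (-0.10), with cyclic loess and without any 1 of the cytokine PGCLC or mESC arrays, and the second with median scaling and without any 1 of the PGCLC arrays.

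The chaperonins showed few calls. Hspd1 and Hspe1 encode the mitochondrial ring and its lid, and neither was called on the probe used. Between the start sites of the promoter entries used for them, 55087932 and 55088148, lie 215 bases. The annotated Hspd1 gene as a whole extends further, to 55088243. A second Hspd1 probe, named after its values were seen, read 11.07 and 10.78 in Nanog PGCLCs and 10.40 and 10.42 in cytokine PGCLCs, against 11.22 and 11.18 in mESCs. It was lower in cytokine PGCLCs than in mESCs (-0.79 ± 0.11, adjusted p over probes = 0.000751) and higher in Nanog than in cytokine PGCLCs (0.52, adjusted p over probes = 0.0173), while the used probe was at -0.28 and 0.20. Of the 7 CCT genes, which fold actin and tubulin, only Cct6a was called. It was at -0.34 ± 0.10 in Nanog PGCLCs (limma adjusted p = 0.0164, with 54.0% of all genes called) and -0.26 ± 0.10 in cytokine PGCLCs (adjusted p = 0.0479, with 54.7% of all genes called). The call was lost in Nanog PGCLCs without Nanog PGCLC replicate 2 or mESC replicate 1, and in cytokine PGCLCs in 8 of the 17 alternatives. A second Cct6a probe was at -0.48 in Nanog PGCLCs and -0.38 in cytokine PGCLCs against mESCs (limma adjusted p over probes = 0.00335 and 0.00948). Cct4 read 12.29 and 12.51 in Nanog PGCLCs and 12.36 and 12.33 in cytokine PGCLCs, against 12.27 and 12.46 in mESCs, with differences of 0.04 ± 0.11 and -0.02 ± 0.11. Tcp1, the remaining subunit of the ring, which the symbol rule leaves out, was at 0.02 ± 0.11 and -0.05 ± 0.11. The largest gaps between replicates among the 53 genes were those of Cct5, by 0.71 in Nanog PGCLCs and 0.94 in mESCs, and of Cct7, by 0.91 in cytokine PGCLCs. Without cytokine PGCLC replicate 2, Cct7 was called lower in cytokine PGCLCs (-0.70, adjusted p = 0.0292).

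Among the FK506-binding proteins, 3 of 7 were higher (28.2% of all genes) and 3 lower (25.9% of all genes) in Nanog PGCLCs. In cytokine PGCLCs 2 were higher (29.9% of all genes) and 3 lower (24.8% of all genes). Fkbp5, an HSP90 co-chaperone that acts on steroid receptors, read 8.42 and 8.19 in Nanog PGCLCs and 7.65 and 7.80 in cytokine PGCLCs, against 8.68 and 8.85 in mESCs. The groups were separate. It was 1.37-fold lower in Nanog PGCLCs (log2 fold change -0.46 ± 0.12, limma adjusted p = 0.0113) and 2.06-fold lower in cytokine PGCLCs (-1.04 ± 0.12, adjusted p = 0.000173), with -0.29 and -0.60 without background correction. The first call was lost with median scaling (-0.15), without Nanog PGCLC replicate 2 (-0.34) and without mESC replicate 2 (-0.37). Between PGCLC groups it was higher in Nanog PGCLCs (0.58 ± 0.12, adjusted p = 0.0106), lost without Nanog PGCLC replicate 1 (0.46) or cytokine PGCLC replicate 1 (0.51).

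The ER FKBP genes split. Fkbp9 read 10.73 and 10.56 in Nanog PGCLCs and 10.29 and 10.23 in cytokine PGCLCs, against 11.03 and 11.15 in mESCs, and was lower in both (-0.45 ± 0.10, limma adjusted p = 0.00605, and -0.83 ± 0.10, adjusted p = 0.000245). Fkbp9 was also higher in Nanog than in cytokine PGCLCs (0.38 ± 0.10, adjusted p = 0.0297), lost without Nanog PGCLC replicate 1 or either cytokine PGCLC replicate. Fkbp11 read 9.28 and 9.15 in Nanog PGCLCs and 8.64 and 8.55 in cytokine PGCLCs, against 9.36 and 9.45 in mESCs. Only the cytokine PGCLC difference was called (-0.81 ± 0.10, adjusted p = 0.000209), and Nanog PGCLCs were 1.54-fold higher than cytokine PGCLCs (0.62 ± 0.10, adjusted p = 0.00306). Fkbp2 went the other way, at 9.18 and 9.43 in Nanog PGCLCs and 9.50 and 9.55 in cytokine PGCLCs, against 8.72 and 8.93 in mESCs (0.48 ± 0.12, adjusted p = 0.0096, and 0.70 ± 0.12, adjusted p = 0.00147). The first of these was lost without Nanog PGCLC replicate 2 (0.35) or mESC replicate 1 (0.38). Outside the ER, Fkbp8, of the mitochondrial outer membrane, was at 0.24 in Nanog PGCLCs (adjusted p = 0.0449) and 0.49 in cytokine PGCLCs (adjusted p = 0.00172). The HSP90 co-chaperone Fkbp4 was at 0.26 (adjusted p = 0.0454) and 0.25 (adjusted p = 0.0532), and Fkbp1a, the target of FK506 and rapamycin, at -0.28 (adjusted p = 0.0301) and -0.23 (adjusted p = 0.0539). The Nanog PGCLC calls of these 3 genes were each lost without any 1 of the Nanog PGCLC or mESC arrays.

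Of the 3 disulfide isomerases, Pdia3 and Pdia5 were lower in Nanog PGCLCs (-0.28, adjusted p = 0.0236, and -0.38, adjusted p = 0.0304) and Pdia4 in cytokine PGCLCs (-0.43, adjusted p = 0.0146). Pdia5 was the only one of the 53 genes called lower in Nanog than in cytokine PGCLCs with the settings reported here (-0.45 ± 0.12, limma adjusted p = 0.0321), and the call was lost without Nanog PGCLC replicate 2 (-0.31) and without either cytokine PGCLC replicate. Each of the calls against mESCs was lost with median scaling. The Pdia3 call was also lost without any 1 of the Nanog PGCLC or mESC arrays, that of Pdia5 without Nanog PGCLC replicate 2, mESC replicate 1 or either cytokine PGCLC replicate, and that of Pdia4 without cytokine PGCLC replicate 1 or mESC replicate 2. By compartment, the 9 ER lumen genes had 3 higher and 3 lower in Nanog PGCLCs and 4 higher and 3 lower in cytokine PGCLCs, and the 8 mitochondrial genes 1 higher and 2 lower in each. The shares of all genes against mESCs were 28.2% higher and 25.9% lower in Nanog PGCLCs, and 29.9% and 24.8% in cytokine PGCLCs.

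Other genes of the same pathways were taken from lists. Of 24 tested heat shock and co-chaperone genes, 5 were higher and 2 lower in Nanog PGCLCs, 6 higher and 4 lower in cytokine PGCLCs, and 1 higher and 2 lower between the PGCLC groups. Over all genes the shares higher and lower were 28.2% and 25.9%, 29.9% and 24.8%, and 11.3% and 11.1%, in the same order. Unc45a, a myosin chaperone, was higher in Nanog PGCLCs than in mESCs (0.61 ± 0.09, limma adjusted p = 0.000888) and than in cytokine PGCLCs (0.64 ± 0.09, adjusted p = 0.00252, and 0.42 with the mean of its probes). Serpinh1, a collagen chaperone, was higher in cytokine PGCLCs than in mESCs (0.78 ± 0.10, adjusted p = 0.00029) and at -0.85 ± 0.10 in Nanog against cytokine PGCLCs (adjusted p = 0.000759). Hsf1 was not among the genes tested.

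Of 19 tested ER folding and unfolded protein response genes, 3 were higher and 3 lower against mESCs in each PGCLC group, and 4 were higher and 0 lower in Nanog than in cytokine PGCLCs. Against mESCs, 28.2% of all genes were higher and 25.9% lower in Nanog PGCLCs, and 29.9% and 24.8% in cytokine PGCLCs. Between the PGCLC groups the shares were 11.3% and 11.1%. Xbp1, whose spliced product drives ER chaperone genes, read 10.58 and 10.53 in Nanog PGCLCs and 9.52 and 9.49 in cytokine PGCLCs, against 9.43 and 9.44 in mESCs. It was higher in Nanog PGCLCs than in mESCs (1.12 ± 0.09, limma adjusted p = 2.47e-05) and than in cytokine PGCLCs (1.04 ± 0.09, adjusted p = 0.00016), with 0.07 ± 0.09 in cytokine PGCLCs against mESCs (adjusted p = 0.504). The lectin chaperone Calr was lower in both, at -0.76 ± 0.11 and -0.96 ± 0.11 (adjusted p = 0.000641 and 0.000181), and Herpud1, of ER-associated degradation, at -1.01 ± 0.15 and -0.69 ± 0.15 (adjusted p = 0.000714 and 0.00507, the second at -0.46 without cytokine PGCLC replicate 2). Atf4 was at -0.31 ± 0.13 and -0.30 ± 0.13, neither called. Ddit3 was lower in Nanog PGCLCs (-0.58 ± 0.17, adjusted p = 0.0216), and the call was lost with median scaling (-0.26), with cyclic loess (-0.47) and without Nanog PGCLC replicate 1 (-0.64), Nanog PGCLC replicate 2 (-0.51) or mESC replicate 1 (-0.29).

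Of 17 tested mitochondrial folding and protease genes, 5 were higher (28.2% of all genes) and 1 lower (25.9% of all genes) in Nanog PGCLCs. In cytokine PGCLCs 5 were higher (29.9% of all genes) and 2 lower (24.8% of all genes). Spg7, a subunit of an inner membrane protease, was at 0.66 ± 0.09 and 1.02 ± 0.09 (limma adjusted p = 0.000426 and 4.54e-05). Trap1, the mitochondrial HSP90, was at 0.59 ± 0.10 and 0.40 ± 0.10 (adjusted p = 0.00178 and 0.0116, the second lost without cytokine PGCLC replicate 2 at 0.29). Atf5, a transcription factor of the mitochondrial unfolded protein response, was at -0.65 ± 0.12 and -0.67 ± 0.12 (adjusted p = 0.00286 and 0.00237), with -0.33 and -0.42 under median scaling, where the first was not called, and -0.35 and -0.36 without background correction.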

How the data were processed

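The authors deposited an intensity for each probe as the scanner software summarised it, and a detection p-value per probe and array, per the file headers. The authors' deposited value table holds log2 values, and limma is named without a version in the submitters' processing notes. Samples were grouped by their labels. Raw intensities of 45281 probes were background corrected with normexp (offset 16, controls inferred from the detection p-values), quantile normalized and log2 transformed with limma 3.58.1 in R 4.3.3. Kept probes were those among the 11542 of the authors' value table that were detected (p below 0.01) on 2 or more of the 6 arrays. No alternative used probes outside those 11542. The brightest kept probe per gene was used. A 3-group model was fitted with lmFit and eBayes, two-sided, with Benjamini-Hochberg adjustment over 6823 genes. Errors are SE. The script was tested on simulated data. For a gene undetected in 1 group, "at least N-fold" sets the brighter mean against a floor, which on each array is the larger of the lowest detected signal and the probe's own signal. Members and lists were chosen with earlier results of these data known. Every member could be named. Array values were given for called genes past 1.5-fold (2-fold, or else the 4 largest changes, in the J-domain and FKBP families). Those of Hsp90b1, Dnajb9, Hspa8, Cct4, Xbp1 and single probes of Dnajb6 and Hspd1 were added after their values were seen, and at most 4 genes per list were named, plus Hsf1, Xbp1, Atf4, Ddit3 and Tcp1. The 17 alternatives covered scaling, background, filter, probe choice, the authors' table, variance trend, blocks and left-out arrays.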

Additional observations from a re-analysis of the deposited data

How the results depend on the processing

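Across 17 alternatives, none of the called chaperone genes changed direction where it had a value. Hspb3, Dnajb2 and Dnajb13 have none among genes detected on all 6 arrays. Of the genes called, 9 of 27 in Nanog PGCLCs against mESCs, 13 of 22 in cytokine PGCLCs against mESCs and 3 of 9 in Nanog against cytokine PGCLCs (Dnajb2, Dnajc6 and Fkbp11) were called under every alternative that gave a value. Dnajb2 had passed the detection filter only through the Nanog PGCLC arrays, where it was high. Of the genes not called, 8, 16 and 8 were called under some alternative. The count for Nanog PGCLCs against mESCs was 16 with median scaling, and leaving out an array gave 15 to 22. For cytokine PGCLCs against mESCs leaving out an array gave 17 to 23. For Nanog against cytokine PGCLCs the count was 14 without background correction, 15 with a variance trend and 14 from the authors' value table, and leaving out an array gave 4 to 9. Over all genes that comparison had 1524 calls, and 628 to 862 when a PGCLC array was left out. With the replicate number as a block the counts were 25, 21 and 9. Correlations between groups of the differences between replicates were -0.00, 0.08 and 0.04. They cannot show whether samples with the same number were handled together, which the labels do not give. Fold sizes of dim genes shrank without background correction, and probes at background carry only bounds.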
